A study of Rattus norvegicus with 10 samples.

Results

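Reactive astrocyte genes are a set of 10 genes that astrocytes are known to raise after injury: Gfap, Vim, Nes, Synm, Serpina3n, Lcn2, Cd44, Emp1, Lgals1 and Steap4. They were looked up by gene symbol among the 16647 gene names of a table of hippocampal messenger RNA. Of the 10, 9 stood on a locus of their own, and Serpina3n stood only on a locus shared with LOC299282. Poly-A RNA of the hippocampus of male Sprague-Dawley rats (200 to 240 g at the start) was sequenced 1 week after surgery, in 5 libraries from sham-operated rats and 5 from rats with traumatic brain injury (TBI) by fluid percussion, a pulse of fluid pressure against the brain. The rats took a learning test before the tissue was taken. The labels give no age, side of the brain or injury severity. They also do not say outright that every library came from its own rat, and the p-values then describe only how far these libraries scatter.

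Astrocytes respond to injury by enlarging and by building up intermediate filaments, the cytoskeletal cables made of GFAP, vimentin, nestin and synemin. They also release proteins such as lipocalin-2 and the protease inhibitor Serpina3n, and place adhesion and membrane proteins such as CD44 on their surface. Signals through the receptor subunit gp130 and the transcription factor STAT3 are a known driver of this programme. Several of these genes are not restricted to astrocytes: vimentin, galectin-1 and EMP1 are also made by fibroblasts and vessel walls, and lipocalin-2 by neutrophils and epithelia. In whole tissue, fewer cells of a type and less RNA per cell cannot be told apart.

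Values are FPKM, fragments scaled by transcript length and library size, so levels can be compared between genes. The sum over all loci was 523239 to 629660 FPKM per library. In loci under 0.1 FPKM, 80.2 to 85.9% of the ratios between any pair of libraries numbered 2 to 5 lay at ratios of small whole numbers, within 0.01 on the log2 scale. Ratios of this kind arise when values are whole fragments on a shared length scale, which gives the relative library total used for scaling. That of TBI 2 was 0.679 times that of TBI 5, and those of the other libraries numbered 2 to 5 were 0.951 to 1.08 times. This total need not equal the number of fragments sequenced. Pairs that include sham 1 or TBI 1 gave only 7.14 to 17.1%, so these libraries stand apart, and differences are also given for libraries 2 to 5 alone. Hippocampal neurons and astrocytes were well represented: 10 neuron markers summed to 2081 to 3530 FPKM and 14 homeostatic astrocyte markers to 2521 to 4315 FPKM. Markers of tissue next to the hippocampus varied much more, with 15 meningeal fibroblast markers at 70.5 to 800 FPKM in sum and 13 choroid plexus markers at 109 to 34452. Ogn was at or below 0.0827 FPKM and Col1a2 is listed at 0 in all libraries.

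Injured and sham hippocampus overlapped for all 9 genes. Of the 8 that were tested, 0 passed limma's test with p-values adjusted by Benjamini-Hochberg over all 16194 genes and loci, of which 0 passed (0%, smallest adjusted p = 0.698). Their mean on the log2(FPKM + 0.5) scale was higher after TBI in 6 of 8, against 50.4% of all tested, and their median difference was 0.07, against 0.0013 over all tested. At an unadjusted p under 0.05 there were 0 of the 8, against 2.91% of all tested (472), of which 1.41% of all tested were higher after TBI and 1.51% lower. Exact permutation of each gene gave 0 after adjustment, which adds no support. Its smallest possible p, 0.00794, is reached only by groups without overlap, and these made up 0.482% of all tested. That share is too small for such a p to pass adjustment over all 16194.

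**Figure D1:**
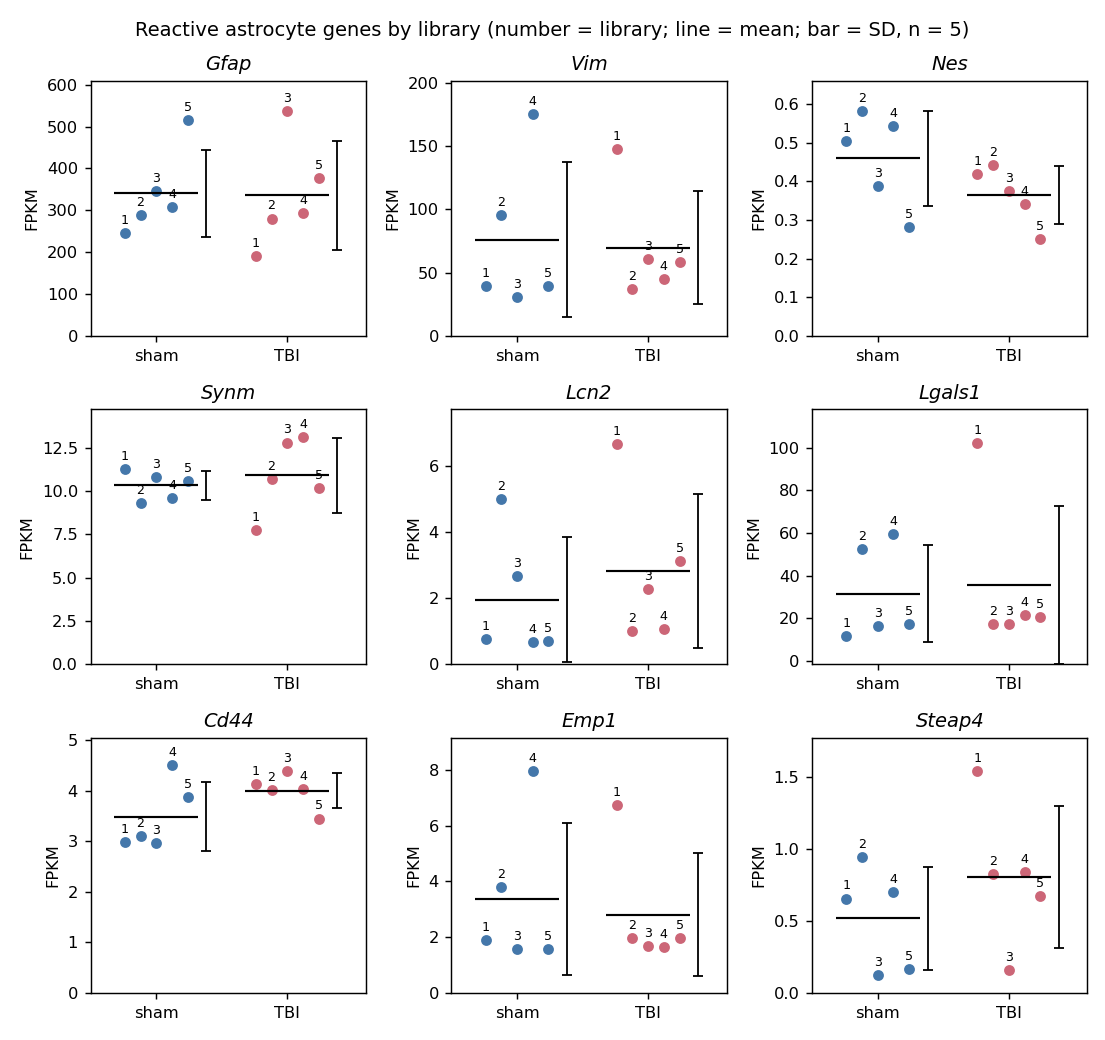
FPKM of 9 reactive astrocyte genes (vertical axis, linear) in the 5 sham and 5 TBI libraries; each point is a library with its number, the horizontal line the group mean and the bar the SD. The groups overlap in every panel, and for Vim, Lgals1 and Emp1 the high points are sham 2, sham 4 and TBI 1.

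Gfap, the main intermediate filament of mature astrocytes (XLOC_004929), had the highest level of the 9. It was at 245, 289.8, 347, 308 and 515 FPKM in sham 1 to sham 5, and at 190.5, 280.4, 536, 294 and 376 in TBI 1 to TBI 5. The extremes of both groups were injured libraries: TBI 1 was the lowest of the 10 and TBI 3 the highest. The means were 341 ± 104 and 335 ± 129.9 FPKM (SD, n = 5 each), a log2 difference of -0.06 (SE 0.27, 95% interval -0.66 to 0.54, adjusted p = 0.993 by limma). In libraries 2 to 5 the difference was 0.01. The interval spans both signs, so a change of either sign within it is compatible with these 5 libraries a group. It is not a limit of detection, since calls were adjusted over 16194 genes and loci.

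The summed level of the homeostatic astrocyte markers, led by a few abundant genes, was lowest in TBI 1 (2521 FPKM) and highest in sham 5 (4315) and TBI 3 (3700). Gene by gene the markers were less uniform: 6 of 14 were lowest in TBI 1 and 5 in sham 2, and 9 were highest in sham 5. The glutamate transporter Slc1a2, lowest in TBI 1, was at 362 FPKM in TBI 1, 757 in sham 5 and 667 in TBI 3, while the water channel Aqp4 was lowest in sham 2 (86.7) with 104 in TBI 1. TBI 1 also had the lowest neuron marker sum, 2081 FPKM against 2844 to 3530 in the others. With the 14 homeostatic markers as reference within each library, the log2 ratio of Gfap was 1.48 ± 0.34 for sham libraries and 1.55 ± 0.43 for injured ones (SD, n = 5 per group, exact two-sided permutation p = 0.770).

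Vimentin (Vim, XLOC_010087), the filament protein that joins GFAP in reactive and immature astrocytes, spread over a 5.64-fold range. It was at 39.5, 95.4, 31.1, 175 and 39.5 FPKM in sham 1 to sham 5. In TBI 1 to TBI 5 it was at 148, 37.1, 60.4, 45.1 and 58.3. Sham 4, TBI 1 and sham 2 were the 3 highest, and every other library was at 60.4 or less. The log2 difference was 0.02 (SE 0.50, interval -1.09 to 1.13, adjusted p = 0.999 by limma), and -0.45 in libraries 2 to 5. That set leaves out TBI 1 but keeps sham 2 and sham 4.

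Synemin (Synm, XLOC_002050), a large filament protein that needs partners such as vimentin to assemble, varied least among sham libraries. It was at 11.3, 9.32, 10.8, 9.62 and 10.6 FPKM in sham, a coefficient of variation of 7.95%. After TBI it was at 7.74, 10.7, 12.8, 13.1 and 10.2. TBI 3 and TBI 4 lay above all sham libraries and TBI 1 below all of them. The log2 difference was 0.06 (SE 0.13, interval -0.24 to 0.35), and 0.20 in libraries 2 to 5, with limma's adjusted p at 0.983 and 0.914. Relative to the homeostatic astrocyte markers, Synm was higher by 0.19 on the log2 scale after TBI (exact permutation p = 0.103), with 4 of 5 injured libraries above all sham libraries. Of the 14 markers 11 had a lower mean after TBI (median log2 difference -0.13), which raises this ratio for every gene. A higher ratio is thus not by itself a higher level of Synm. Without TBI 1, the injured library not above all sham libraries, the groups did not overlap on this ratio (0.26, exact p = 0.0159). Nor did they in libraries 2 to 5, which also leave out TBI 1 (0.27, exact p = 0.0286, the smallest that 4 against 4 allows). With the median of the markers as reference it was 0.11 (exact p = 0.429). This ratio was computed for 9 genes and these p-values are not adjusted.

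Nestin (Nes, XLOC_012232), the filament of neural stem cells that reactive astrocytes can re-express, had the lowest mean of the 9. It was at 0.503, 0.581, 0.389, 0.544 and 0.281 FPKM in sham and at 0.418, 0.442, 0.375, 0.341 and 0.251 after TBI. Every injured library (5 of 5) was under the mean log2 value of sham, but only TBI 5 was under the lowest sham library. Its mean of 0.413 FPKM was under the minimum of 0.5 for testing. Taken alone, its log2 difference of -0.14 had an exact permutation p of 0.206, and with no minimum limma's adjusted p was 0.974. Its values in the 8 libraries with a shared length scale are whole multiples of a single step to within 0.129 of a fragment, which gives 77, 49, 68 and 33 fragments in sham 2 to sham 5 and 37, 46, 41 and 31 in TBI 2 to TBI 5, or multiples of these. Such a reading was accepted for Nes and Steap4 only, at a root mean square deviation of at most 0.06, a limit set after the deviations were seen (0.0825 to 0.170 for the other 7 genes). For 33 fragments the 95% Poisson interval is 22.7 to 46.3, which covers counting error only, as do the other intervals on fragments. The 77 fragments of sham 2 have an interval of 60.8 to 96.2.

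**Figure D2:**
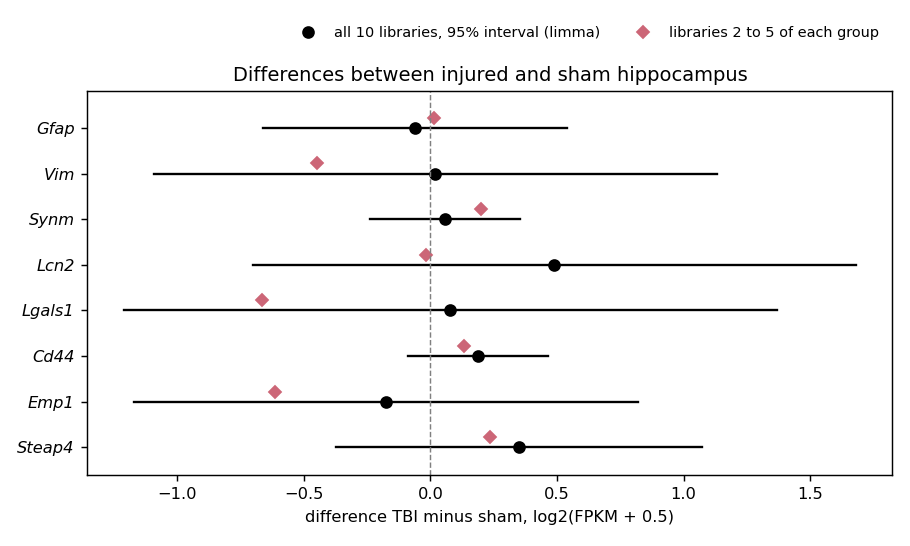
Log2 differences TBI minus sham, on the log2(FPKM + 0.5) scale, for the 8 tested genes. Black points are the fit to 10 libraries with limma's 95% interval, and diamonds the difference in libraries 2 to 5. All 8 intervals include 0, and the diamonds of Vim, Lgals1 and Emp1 lie at -0.45, -0.67 and -0.62. For these genes the diamonds leave out TBI 1, a high library, but keep the high libraries sham 2 and sham 4.

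Among the secreted proteins, lipocalin-2 (Lcn2, XLOC_015229), an iron-carrier binding protein, was at 0.756, 4.99, 2.67, 0.692 and 0.704 FPKM in sham 1 to sham 5. In TBI 1 to TBI 5 it was at 6.68, 1.00, 2.27, 1.08 and 3.12. All 12 tested choroid plexus markers also had a higher mean after TBI (median log2 difference 1.87, 0 passed). The Lcn2 difference was 0.49 on the log2 scale (SE 0.54, interval -0.70 to 1.68, adjusted p = 0.983 by limma) and -0.02 in libraries 2 to 5. High and low Lcn2 libraries occurred in both groups and lined up with choroid plexus content. The 5 libraries with the most Lcn2 (TBI 1, sham 2, TBI 5, sham 3 and TBI 3) had choroid plexus sums of 9805 to 34452 FPKM. TBI 4 had 12730 with low Lcn2, and the 4 other libraries had 109 to 526. With the choroid plexus score as a covariate the Lcn2 difference was -0.15; its part in Lcn2 was not tested further. Neutrophil genes were scarce: 8 markers summed to 0.271 to 3.06 FPKM, and Elane and Retnlg are listed at 0 in all libraries. Their sum was highest in sham 2 (3.06), TBI 1 (2.53), TBI 5 (2.05) and TBI 3 (1.85), all high in Lcn2, and lowest in TBI 4. Sham 3, also high in Lcn2, had 0.887, below sham 1 (1.35). The part of neutrophils in Lcn2 was not tested.

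Galectin-1 (Lgals1, XLOC_020902), a small sugar-binding protein, was at 11.8, 52.4, 16.2, 59.7 and 17.1 FPKM in sham and at 102, 17.3, 17.2, 21.7 and 20.7 after TBI. The same libraries as for Vim were high, TBI 1, sham 4 and sham 2, and the rest lay between 11.8 and 21.7. The log2 difference was 0.08 (SE 0.58, interval -1.21 to 1.37, adjusted p = 0.997 by limma), and -0.67 in libraries 2 to 5, a set with sham 2 and sham 4 but without TBI 1.

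The locus shared by Serpina3n and LOC299282 (XLOC_019733) cannot be credited to either gene and was not counted with the 9. It was at 0.628, 1.32, 0.0631, 0.123 and 0.133 FPKM in sham and at 2.71, 0, 0.204, 0.781 and 0.0249 after TBI. TBI 1 and sham 2 were the highest, the libraries that also had the most Lcn2. Its log2 difference was 0.15 (SE 0.53, adjusted p = 0.990 by limma), and -0.19 in libraries 2 to 5 (exact permutation p = 0.629).

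Among the membrane proteins, the hyaluronan receptor Cd44 (XLOC_015596) was the most even of the 9, with its highest library at 1.51 times its lowest. It was at 2.98, 3.10, 2.97, 4.5 and 3.88 FPKM in sham and at 4.13, 4.02, 4.38, 4.03 and 3.45 after TBI. Every injured library (5 of 5) exceeded the average log2 value of sham, but sham 4 was the highest of the 10. The log2 difference was 0.19 (SE 0.12, interval -0.09 to 0.46, adjusted p = 0.983 by limma) and 0.13 in libraries 2 to 5. Relative to the homeostatic astrocyte markers it was 0.32 higher (exact permutation p = 0.0556), and 0.24 higher with the marker median (exact p = 0.206). Without sham 4 it was 0.43 higher with an exact p of 0.00794, the smallest that 4 against 5 allows. Sham 4 was the only sham library whose ratio lay above an injured one, so leaving it out makes this separation. With any other library left out, Cd44 had an exact p of 0.0556 to 0.111. In libraries 2 to 5 it was 0.20 higher (exact p = 0.200). As for Synm, the lower means of the markers after TBI raise this ratio.

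Emp1 (XLOC_016931), a tetraspan membrane protein, was at 1.91, 3.79, 1.59, 7.94 and 1.59 FPKM in sham and at 6.75, 1.97, 1.69, 1.64 and 1.98 after TBI. Sham 4, TBI 1 and sham 2 again stood highest, and the other 7 libraries lay within 1.59 to 1.98. The log2 difference was -0.17 (SE 0.45, interval -1.17 to 0.82, adjusted p = 0.984 by limma) and -0.62 in libraries 2 to 5, which again keep sham 2 and sham 4 but not TBI 1.

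Steap4 (XLOC_017041), a metalloreductase of membranes, split the libraries differently. It was at 0.656, 0.942, 0.126, 0.699 and 0.169 FPKM in sham and at 1.54, 0.828, 0.161, 0.840 and 0.675 after TBI. Sham 3, sham 5 and TBI 3 were low, and the remaining 7 were at 0.656 or more. Read as whole fragments, with a deviation of at most 0.0975, sham 2 to sham 5 held 63, 8, 44 and 10 and TBI 2 to TBI 5 held 35, 10, 51 and 42, or multiples of these. The 8 fragments of sham 3 (95% Poisson interval 3.45 to 15.8) and the 10 of sham 5 and of TBI 3 (4.80 to 18.4) were the fewest. The 35 of TBI 2, which had the lowest total used for scaling among the libraries numbered 2 to 5, came next (24.4 to 48.7). The log2 difference between the groups was 0.35 (SE 0.33, interval -0.37 to 1.07, adjusted p = 0.983 by limma) and 0.23 in libraries 2 to 5.

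Promoter sequences are shown for Emp1 and Steap4, which hold the letters of the STAT3 motif that gp130 signals act through. The windows run from 250 bases before to 50 after the RefSeq gene start of the GRCr8 rat assembly, and 9 of the 10 genes had an entry, all except Lgals1. Capitals mark matches to TTCNNNGAA (STAT3) or TGANTCA (AP-1), searched on both strands, and both motifs read the same on either strand. Emp1 lies at chr4:169943980-169944279, plus strand, and Steap4 at chr4:27054720-27055019, minus strand.
Emp1: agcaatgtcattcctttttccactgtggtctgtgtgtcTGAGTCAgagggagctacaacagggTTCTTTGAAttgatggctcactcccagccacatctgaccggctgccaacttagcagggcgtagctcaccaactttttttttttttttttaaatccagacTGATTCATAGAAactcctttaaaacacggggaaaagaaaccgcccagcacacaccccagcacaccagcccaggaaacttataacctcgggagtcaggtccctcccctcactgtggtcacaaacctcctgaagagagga
Steap4: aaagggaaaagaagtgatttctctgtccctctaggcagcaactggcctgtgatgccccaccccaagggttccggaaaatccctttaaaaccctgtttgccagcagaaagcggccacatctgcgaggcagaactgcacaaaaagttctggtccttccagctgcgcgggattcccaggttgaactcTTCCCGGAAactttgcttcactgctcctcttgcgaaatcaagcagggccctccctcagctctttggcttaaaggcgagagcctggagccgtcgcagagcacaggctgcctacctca
Emp1 held TTCNNNGAA at positions 64 and 166 of the window, counted from 1 at its 5′ end, and TGANTCA at 39 and 163; the matches at 163 and 166 overlap. Steap4 held TTCNNNGAA at 185. With Serpina3n, 3 of 9 windows held the STAT3 letters, against 8.87% of 33469 rat promoter windows, and 1 of 9 held the AP-1 letters, against 7.33%.

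No correlation of Gfap with the other genes passed a test. Over 10 libraries its Pearson correlation on the log2 scale was 0.546 with Synm (rho 0.297), -0.356 with Vim (rho -0.0424), -0.521 with Nes (rho -0.600), -0.539 with Emp1 (rho -0.479), -0.275 with Lcn2 (rho -0.200) and 0.163 with Cd44 (rho 0.103). The permutation p-values of r were 0.0930, 0.311, 0.120, 0.104, 0.446 and 0.651, and those of rho 0.406, 0.915, 0.0717, 0.163, 0.586 and 0.787, in the same order. Adjusted over the 8 relations computed, the smallest was 0.240 for r and 0.574 for rho. Without sham 5 and TBI 3, the libraries farthest from the Gfap median, r was 0.476, -0.362, -0.379, -0.450, -0.215 and -0.245, and in libraries 2 to 5 it was 0.328, -0.213, -0.564, -0.421, -0.0548 and 0.215. Lgals1 and Steap4 fell into separate clusters of libraries, so their pooled correlation was not tested. Sham 3, sham 5 and TBI 3, low in Steap4, were high in Gfap (347, 515 and 536 FPKM). TBI 5, at 376 FPKM of Gfap, was not low in Steap4 (0.675). The residuals of Gfap and Steap4 from their group means correlated by -0.874 over 10 libraries, a description without a test. Within the larger cluster of 7 libraries r was 0.289 for Lgals1 (rho 0.143, exact permutation p = 0.545 and 0.783) and -0.758 for Steap4 (rho -0.357, exact p = 0.118 and 0.444). Without the 2 libraries farthest from the Gfap median, that of Steap4 was 0.436 and that of Lgals1 0.632, over 5 libraries each; in libraries 2 to 5 of the cluster r was -0.755 and -0.365. The Steap4 value thus turned its sign without TBI 1 and TBI 5 together, but not without the libraries numbered 1.

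Vim, Emp1 and Lgals1 shared their high libraries with meningeal and vessel wall genes. Sham 2, sham 4 and TBI 1 had meningeal fibroblast sums of 596, 585 and 800 FPKM, against 70.5 to 256 in the other 7. Their pericyte and smooth muscle sums were 219, 359 and 350, against 97.4 to 118. Col1a1, a fibroblast collagen, was at 20.3, 34.3 and 30.5 FPKM in them and at 1.54 to 3.54 elsewhere. The meningeal sums were led by Igf2, at 377, 244 and 445 FPKM in sham 2, sham 4 and TBI 1. Elsewhere Igf2 was at 89.9 to 165 in sham 3, TBI 3, TBI 4 and TBI 5, which had high choroid plexus sums. It was at 10.6 to 13.3 in sham 1, sham 5 and TBI 2, which had low ones. Without sham 2, sham 4 and TBI 1 the log2 differences of Vim, Emp1 and Lgals1 were 0.43 (SE 0.18), 0.08 (SE 0.13) and 0.35 (SE 0.15). Limma's adjusted p was 0.998 for each. With all 10 libraries and the meningeal score as a covariate, they were 0.03 (SE 0.16), -0.16 (SE 0.17) and 0.09 (SE 0.19). The part of these cells in the values of Vim, Emp1 and Lgals1 was not tested further.

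**Figure D3:**
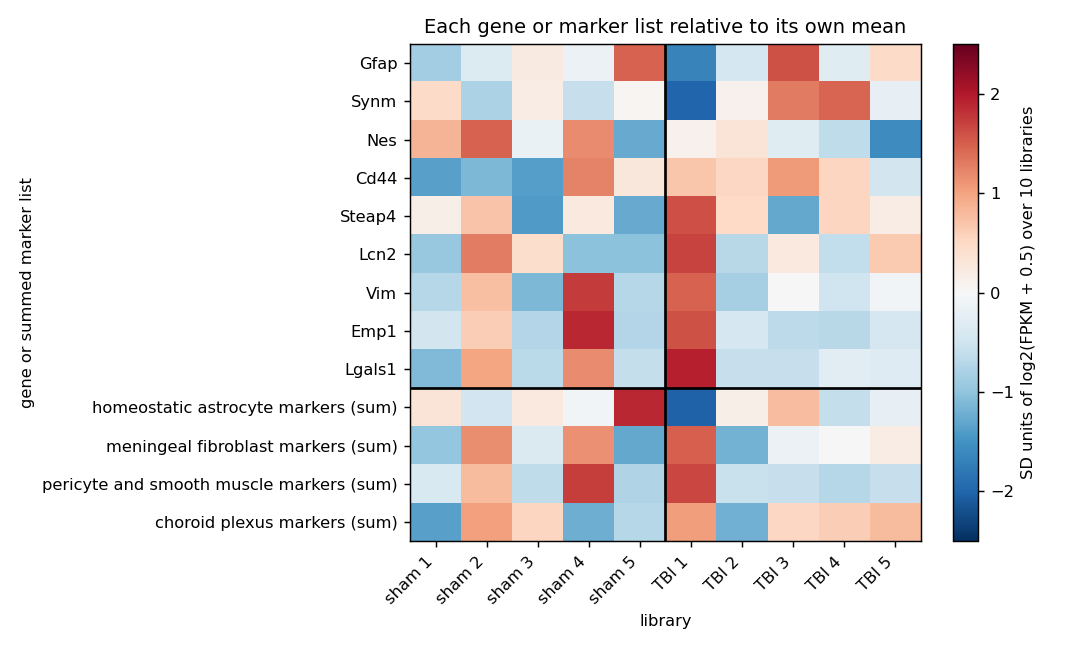
Each row is a gene or the sum of a marker list, each column a library, and colour gives log2(FPKM + 0.5) in SD units around the row's mean over 10 libraries. Vim, Emp1 and Lgals1 are high in sham 2, sham 4 and TBI 1, where meningeal and vessel wall sums are high, and Gfap is lowest in TBI 1 with the homeostatic astrocyte sum.

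The genes whose pattern was most like Vim were Aebp1, Emp3, Wnt5b, Rbp4 and Id3, with residual Pearson correlations of 0.987 to 0.981 over the 10 libraries and 10532 named genes compared. Aebp1, a matrix-binding protein, was at 20.6, 42.4 and 24.0 FPKM in sham 2, sham 4 and TBI 1 and at 9.39 or less elsewhere. Emp1 ranked at 51 and Lgals1 at 150 in that order, and Gfap at 7085. For Gfap the genes most alike were Cacng4, Gna11, Chfr, Map6d1 and Pragmin (0.977 to 0.965). Cacng4, an auxiliary subunit of AMPA receptors, was at 13.5 FPKM in TBI 1, 24.1 in sham 5 and 23.3 in TBI 3. These correlations are descriptions over libraries that share tissue composition and scaling.

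**Figure D4:**
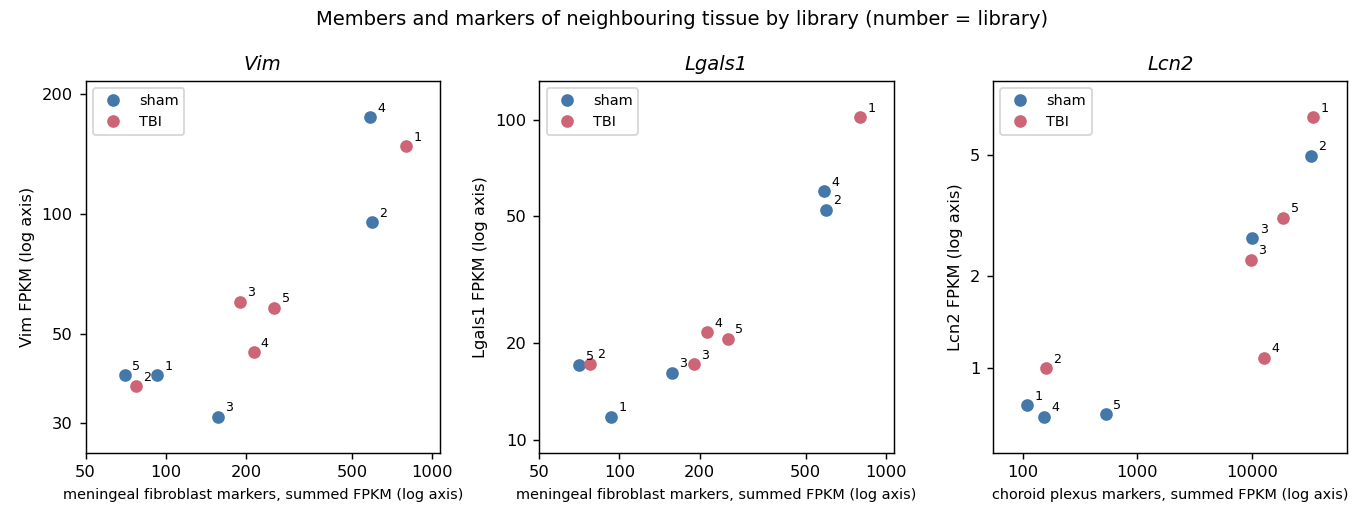
FPKM of Vim, Lgals1 and Lcn2 (vertical, log axis) against the summed FPKM of meningeal fibroblast or choroid plexus markers (horizontal, log axis), a point per library with its number. Igf2 leads the meningeal sum. TBI 1 and sham 2 are at the upper right of all 3 panels, and TBI 4 has low Lcn2 at 12730 FPKM of choroid plexus markers.

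In other genes of the reactive programme 0 passed as well. Of 12 matched pan-reactive genes, 5 of them in the set of 9, 12 were tested, 0 passed and 7 had a higher mean log2 value after TBI, with a median difference of 0.10. Timp1, an inhibitor of matrix proteases, averaged 4.46 ± 3.03 FPKM (sham) and 5.07 ± 3.23 (TBI), highest in TBI 1 (10.7), sham 4 (8.18) and sham 2 (7.34). Ceruloplasmin (Cp) was at 19.9 in TBI 1 and 18.4 in sham 4, and at 1.73 to 7.08 elsewhere. The sphingosine-1-phosphate receptor S1pr3 was at 2.78 ± 0.522 and 3.36 ± 0.356 FPKM (log2 difference 0.24, SE 0.13, adjusted p = 0.983 by limma).

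Of 9 genes of the neurotoxic type of reaction called A1, 8 were tested, 0 passed and 4 had a higher mean, with a median difference of 0.03. Complement C3, also a product of microglia, was at 1.49 to 3.08 FPKM in sham and at 5.20, 5.84, 13.9, 2.53 and 9.52 in TBI 1 to TBI 5. Its log2 difference was 1.35 (SE 0.36, adjusted p = 0.983 by limma). TBI 3, the highest, also had the highest microglial marker sum, 354 FPKM against 180.4 to 255 in the others, but the order of this sum did not match elsewhere. TBI 5, second in C3, had a sum of 209.9, while sham 4 and sham 5 had 254 and 255 with C3 at 2.57 and 3.08. Itgam, the microglial marker with the smallest p (adjusted p = 0.983 by limma), was highest where C3 was. It was at 4.85 in TBI 3, 4.36 in TBI 5 and 3.09 in TBI 2. In sham 4 and sham 5 it was at 2.7, above TBI 1 (2.43). All 12 microglial markers had a higher mean after TBI (median 0.13, 0 passed), and their part in C3 was not tested. Amigo2, an adhesion protein, was at 6.30 ± 1.87 and 8.45 ± 1.17 FPKM (log2 difference 0.43, SE 0.18, adjusted p = 0.983 by limma). Of 11 matched A2 genes, the type held to aid repair, 8 were tested, 0 passed and 3 had a higher mean, with a median of -0.12. S100a10, an annexin partner, was at 23.8 ± 3.8 and 18.4 ± 3.87 FPKM (log2 difference -0.37, SE 0.15, adjusted p = 0.983 by limma).

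Of the 16 genes of gp130 and STAT3 signalling 12 were tested, 0 passed and 4 had a higher mean, with a median difference of -0.03. The ligand Cntf averaged 3.25 ± 0.501 FPKM in sham libraries and 4.59 ± 1.05 in injured ones (log2 difference 0.43, SE 0.15), and its receptor Cntfr at 42.5 ± 1.69 and 35.2 ± 6.32 (-0.29, SE 0.12), both with an adjusted p of 0.983 by limma. Stat3 itself was at 12.0 to 15.6 FPKM in sham and 11.7 to 15.4 after TBI. Of 14 homeostatic astrocyte genes 0 passed and 3 had a higher mean, with a median difference of -0.13. Among the neural progenitor markers 5 of 8 tested had a higher mean, among oligodendrocyte markers 9 of 10, among endothelial markers 2 of 10 and among ependymal markers 5 of 6, and 0 of these passed.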

How the data were processed

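Poly-A RNA of 10 hippocampal libraries, 5 sham and 5 TBI, was sequenced by HiSeq (labels' protocols). The authors' deposited table holds FPKM values of 25269 loci, with no coordinates; TopHat, TopHat2, Bowtie, Bowtie2, Cufflinks, Cuffdiff and the rn5 build are named in the submitters' processing notes without roles or versions. FPKM divides by transcript length and a library total; 75th percentiles of 13.1 to 13.5 FPKM show scaling between libraries. Strand is not given, so overlapping genes cannot be told apart. Absolute depth is unknown.

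Rows sharing a symbol, ignoring case, were summed, and 23824 genes and unnamed loci remained. Those with a mean of at least 0.5 FPKM (16194) were tested with limma 3.58.1 in R 4.3.3 (mean trend, two-sided) on log2(FPKM + 0.5), a scale that understates changes of low genes, with Benjamini-Hochberg adjustment and a threshold of 0.05. Groups and numbers follow the titles. On simulated tables of 16194 features with 200 changed, 70.4% of 2-fold and 94.0% of 4-fold changes were recovered, and 4.63% of calls were false. The simulated noise was independent between features, unlike the shared variation of these libraries. Recovery is an average over all features, not a rate for genes as variable as Vim, Lcn2, Emp1 and Lgals1 (SE 0.45 to 0.58). Ratios to 14 homeostatic astrocyte markers were tested by exact permutation over 252 assignments, correlations with scipy 1.17.1. The likeness of genes is the Pearson correlation of residuals from group means. The text names the 9 genes, up to 2 members of each described list with the smallest p, first markers of lists, and the 5 genes most like Gfap and Vim; further names (such as Cp, Slc1a2, Stat3) were chosen after their values were seen, as were the shared Serpina3n locus, the reading of whole fragments and the term for the libraries numbered 1. Members and lists were chosen with earlier results of these data known. Whole fragments came out for 2 genes only, so no count test was run.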

Additional observations from a re-analysis of the deposited data

Results flagged for a closer look

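Among the 20 sets of 5 libraries examined (9 genes and the shared Serpina3n locus in each group), 2 had a library far from the others by Dixon's test, where chance gives about 1 in 20. Emp1 in TBI 1, at 6.75 FPKM, lay apart from the other injured libraries by 0.881 of the group's log2 range, against a limit of 0.71. Lgals1 in TBI 1, at 102 FPKM, lay apart by 0.871 of the range. Both flags fell on the same library, and the residuals of Emp1 and Lgals1 correlated by 0.934 over 10 libraries. They are thus not independent, and their number cannot be set against the rate by chance. TBI 1 also had the highest meningeal fibroblast sum of the 10 libraries (800 FPKM).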

How the results depend on the processing

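No alternative gave a call among the 9 genes in limma's test, and the differences of Cd44 (0.13 to 0.27) and Steap4 (0.17 to 0.585) kept their sign under every alternative that tested them. Over all genes and loci, 0 passed except for 2 without sham 2, sham 4 and TBI 1 (Plac9 and XLOC_001089), 2 with a term for the libraries numbered 1, and 0 to 2 when a library was left out (Plac9 and XLOC_020489 without sham 4); the cause was not tested. Exact permutation of each gene called 0, but its smallest possible p of 0.00794 could not pass adjustment with so few groups without overlap. Other differences turned their sign as follows, among them that of Lcn2, the largest of the 9 (0.49). Quantile normalization gave 0.0134 for Gfap. Array weights gave -0.0168 for Lcn2 and -0.0648 for Lgals1. The choroid plexus score as covariate gave -0.15 for Vim, -0.15 for Lcn2, -0.25 for Lgals1 and -0.20 for the shared Serpina3n locus; with the meningeal score added, Lcn2 was -0.0903, Emp1 0.0045 and the shared locus -0.0612. Without the libraries numbered 1, Gfap was 0.0147, Vim -0.45, Lcn2 -0.0167 and Lgals1 -0.67. Without sham 2, sham 4 and TBI 1, Gfap was 0.0266 and Emp1 0.0785. With each library left out in turn, Gfap ranged from -0.25 to 0.12, Vim from -0.30 to 0.40, Synm from -0.0109 to 0.17, Lcn2 from 0.15 (without TBI 1) to 0.86 (without sham 2), Emp1 from -0.50 to 0.17, Lgals1 from -0.40 to 0.38 and the shared locus from -0.0024 to 0.42.

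Of the ratios to astrocyte markers 0 of 9 had an exact p under 0.05, against 1 (Synm) without the libraries numbered 1 and 0 to 1 with a library left out (Cd44 without sham 4, Synm without TBI 1). Signs turned for Nes with a pseudocount of 1 (0.0407), for Gfap with the marker median (-0.0053), and for Vim (-0.38), Lgals1 (-0.60) and the shared locus (-0.13) without the libraries numbered 1. With a library left out, Gfap ranged from -0.0691 to 0.21, Vim from -0.20 to 0.55, Nes from -0.14 to 0.0909, Emp1 from -0.41 to 0.32, Lgals1 from -0.31 to 0.54 and the shared locus from -0.20 to 0.61. Titles number the libraries 1 to 5 in both groups. Their deviations correlated by -0.379 to 0.306 between equal numbers, over 0.1 in 1 of 5 pairs, and 1 of 5 sham libraries correlated best with its own number. The replicate block left 0 genes and loci called and 0 of the 9, and Gfap at -0.06. The edgeR alternative was not run, since whole fragments came out for Nes and Steap4 only. Low levels limit Nes, Steap4 and Lcn2.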

Other observations

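The genes most like Emp1, Lgals1 and Lcn2 were listed after the values were seen, by the same residual correlation over 10 libraries. Those most like Emp1 were Fam180a, Des, Tagln, Tpm2 and Foxc1 (0.987 to 0.984). Desmin (Des) and transgelin (Tagln) are proteins of smooth muscle and pericytes: Tagln was at 56.7, 109 and 112 FPKM in sham 2, sham 4 and TBI 1 and at 15.8 to 21.0 in the others. Those most like Lgals1 were Prrx2, Dcdc2, Gstm2, Fbln1 and Cnn1 (0.980 to 0.971), among them the matrix protein fibulin-1 (Fbln1), at 37.1, 49.0 and 47.1 FPKM in those libraries and 9.76 to 15.1 elsewhere.

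Those most like Lcn2 were Lrrc18, Rbm38, Klc3, RGD1563547 and Hfe (0.989 to 0.961). Hfe, a regulator of iron uptake, was at 12.9 FPKM in sham 2 and 13.6 in TBI 1 and at 2.20 to 2.75 in sham 1, sham 4 and sham 5. The small heat shock protein Hspb1, a gene of the pan-reactive list, was at 91.3 FPKM in TBI 1 and at 6.27 to 24.2 in the other 9 libraries.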
